A study of Tursiops truncatus with 31 samples.

Results

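The blood libraries described here were the 10 with the highest and the 10 with the lowest share of globin transcripts, 20 of 31 in all. They were selected on the measured globin level itself. For each library the FPKM of 8 globin genes (reads per unit of transcript length, relative to all reads mapped in that library) were summed and divided by the sum over all 9610 genes of the genome-based table. The 8 genes were HBB, HBA, HBM, HBQ1, HBE1, HBZ and 2 genes without a symbol in the table, ENSTTRG00000009506 and ENSTTRG00000012084, which the study identified by sequence search as HBB and HBA. The 10 libraries at the top of this ranking are called globin-rich, the 10 at the bottom globin-poor, and the remaining 11 belong to neither set. The share that defines the sets is a measured value, so the difference in globin between them is a description and was not tested.

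Whole blood had been drawn during 1 year from 4 healthy bottlenose dolphins (Tursiops truncatus) in human care: the males Hua (5 years) and Kai (17 years) and the females Keo (12 years) and Pele (28 years). Blood was taken into tubes that preserve RNA, and all 31 RNA samples, in both sets alike, were digested with RNase H after hybridization to oligonucleotides against HBA, HBB and HBM before library preparation. No library without this depletion entered the comparison, and no animal was treated. The libraries are repeated samples of 4 animals, so the p-values below describe the spread between libraries once the mean of each animal is taken out, and not the spread between animals.

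Hemoglobin, the oxygen carrier of red cells, is built from alpha-type and beta-type globin chains. Mature mammalian red cells have no nucleus, and the globin mRNA in blood comes mostly from reticulocytes, the young red cells that still translate it together with the enzymes of haem synthesis. RNase H cuts the RNA strand of an RNA-DNA hybrid, so a globin transcript is removed only where an oligonucleotide has annealed to it. White cells and platelets supply mRNA to whole blood as well.

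The globin share ran from 5.68% in the December library of Pele to 43.1% in the October library of Hua. It was 35.6 ± 5.73% in the globin-rich and 11.0 ± 3.33% in the globin-poor set (SD, n = 10 each). In the second genome table, where 6 of the 8 genes were measured, without HBA and HBB, the share was lower, at 22.3 ± 4.46% and 5.61 ± 1.99%. In descending order the globin-rich libraries were Hua October, Keo March, Keo April, Kai July, Hua December, Kai September, Kai April, Pele July, Pele March and Hua August. The globin-poor libraries, from the upper end down, were Kai May, Hua July, Keo November, Keo August, Keo October, Pele September, Pele May, Keo June, Keo February and Pele December. The shares formed a continuum rather than separate groups. The last globin-rich library (Hua August) was at 29.2% and the next one outside (Pele August) at 28.9%, while the first globin-poor library (Kai May) was at 15.0% and the next one above it (Hua May) at 16.8%.

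**Figure D1:**
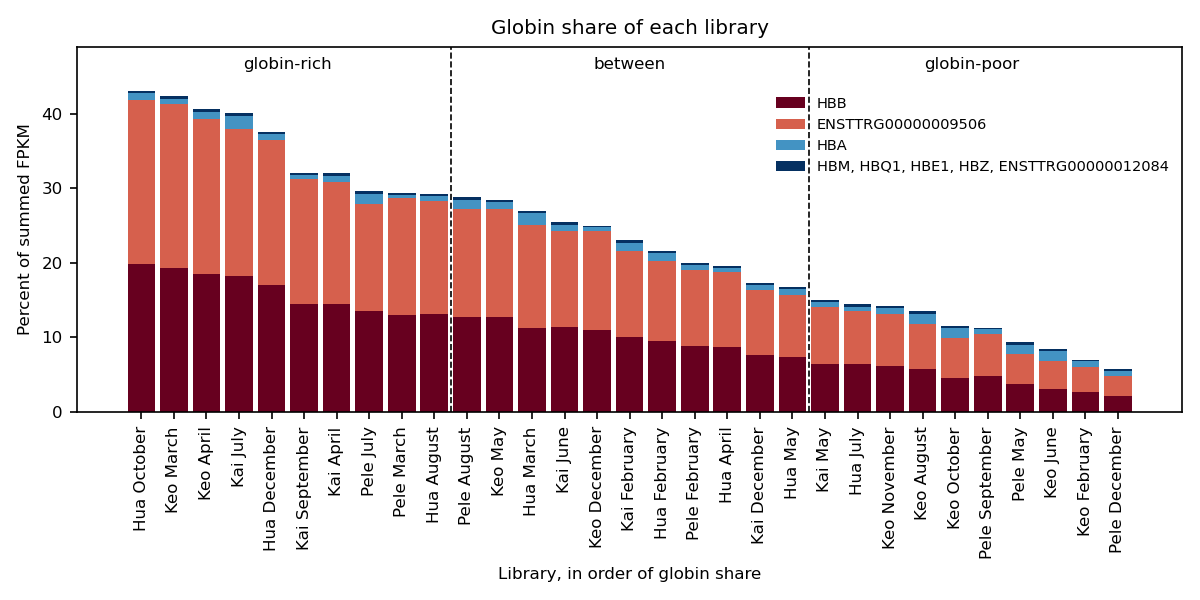
Globin share of the 31 libraries, in percent of the summed FPKM of each library, in descending order. Colours split each bar into HBB, ENSTTRG00000009506, HBA and the other 5 globin genes, and dashed lines bound the sets. HBB and ENSTTRG00000009506 make up most of every bar, and the HBA segment does not shrink from left to right as they do.

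Most of the share that chose the sets was the adult beta chain, as HBB and ENSTTRG00000009506. HBB had 185520 to 302803 FPKM in the globin-rich libraries (median 246301) and 25281 to 95246 FPKM in the globin-poor ones (median 57911), a ratio of medians of 4.25. ENSTTRG00000009506, the second sequence identified as HBB, was at 198481 to 337443 FPKM (median 281958) and 30134 to 111765 FPKM (median 68469), a ratio of 4.12. Neither gene overlapped between the sets, and together they held 80.9 to 97.9% of the globin FPKM of a library. Their ratio stayed between 0.786 and 0.941 in all 31 libraries, and whether reads were divided between near-identical sequences was not tested.

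The other globins followed the share less closely or not at all. HBM, the mu chain of the alpha-type cluster and also a target of the depletion, was at 3117 to 5367 FPKM (median 4584) in globin-rich and 895 to 3378 FPKM (median 1982) in globin-poor libraries, with 8 of the 10 globin-rich libraries above every globin-poor one. HBA, the adult alpha chain, was at 5210 to 26026 FPKM (median 12412) and 6994 to 18234 FPKM (median 10643), and the sets overlapped, with a ratio of medians of 1.17. HBA therefore made up 2.04% of the globin FPKM in the median globin-rich library and 11.1% in the median globin-poor one. HBB per HBA had a median of 22.4 in the globin-rich and 3.67 in the globin-poor libraries. The embryonic chains HBE1 and HBZ and the theta chain HBQ1 had ratios of medians of 1.12, 1.11 and 0.999, and each overlapped between the sets. ENSTTRG00000012084, the second sequence identified as HBA, at a median of 43.8 against 7.44 FPKM, overlapped as well, with 65.4 FPKM in the August library of Keo, a globin-poor one. In FPKM as deposited, a globin-rich library was thus one rich in HBB and ENSTTRG00000009506, while HBA differed little next to its spread within a set. The globin values were not divided by the size factors used below, which were mostly smaller in the globin-rich libraries. Their ratios between the sets are therefore not on the same scale as the scaled values of other genes.

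Animals and sexes were not evenly spread over the sets. The globin-rich set held 3 libraries of Hua, 3 of Kai, 2 of Keo and 2 of Pele, and the globin-poor set 1 of Hua, 1 of Kai, 5 of Keo and 3 of Pele. Thus 6 of 10 globin-rich and 2 of 10 globin-poor libraries were male, and animal was kept as a block in the fits. July, August and September supplied 4 globin-rich and 3 globin-poor libraries, and December and February 1 and 2. A second property varied strongly between libraries: 13 to 1648 of 9610 genes were listed at 0. Genes used by every cell were among these zeros, so a 0 here is not evidence of absence. The number at 0 was 464 ± 403 in globin-rich and 408 ± 320 in globin-poor libraries (SD, n = 10 each, p = 0.732, two-sided permutation test within animals), and libraries with over 500 such genes made up 5 and 4 of the 10. The depth of each library is unknown, because the files hold no read totals and the low values did not allow them to be recovered.

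Once the 8 globin genes were left out, 9602 genes were compared. FPKM divides by all mapped reads, but its sum over genes is not fixed. The sum without globins was smaller in the globin-rich libraries (median 958378 against 1094470 FPKM). The sum with globins was larger there (median 1535690 against 1230190 FPKM). In the deposited FPKM 879 genes (9.15% of those tested) passed an adjusted p of 0.05 (limma, two-sided, Benjamini-Hochberg over all genes). Of these, 877 (9.13%) were lower in the globin-rich libraries and 2 (0.0208%) were higher. The median log2 difference over all genes, on the scale of log2(FPKM + 1), was -0.44. The 877 had log2 differences between -1.97 and -0.43, with a median of -0.79. After scaling to the sum without globins the median over all genes was -0.27. What made up the shift of the deposited values was not tested.

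Division by a size factor, the median ratio of each library to the geometric mean of all libraries, moved the median log2 difference to 0.01. Size factors were 0.644 to 1.14 in the globin-rich and 0.834 to 1.64 in the globin-poor libraries. After this scaling no gene passed the adjusted threshold (0.0% by limma, smallest adjusted p = 0.177). At an unadjusted p under 0.05 there were 646 genes (6.73%), 441 higher (4.59%) and 205 lower (2.13%) in the globin-rich libraries, and 400 in all without the April library of Keo. No gene had all 10 globin-rich libraries above, or all below, the 10 globin-poor ones. Of the 877 genes lower in the deposited values, 850 kept a difference below 0 and 180 had an unadjusted p under 0.05, and their median log2 difference was -0.29. All values from here on are scaled unless called deposited, and members named from here on were chosen after their values were seen, except the 4 depletion controls and the genes of the fits on the middle libraries and the sexes.

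**Figure D2:**
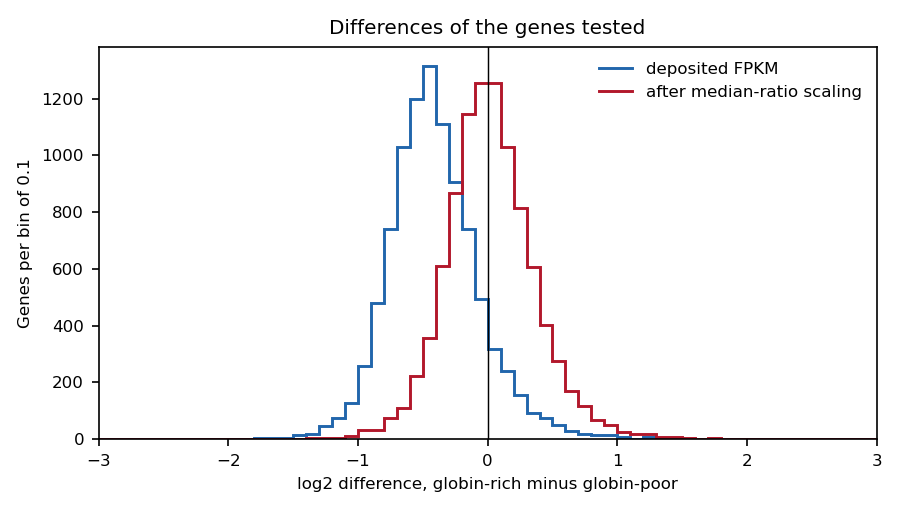
Number of genes per 0.1 of log2 difference, globin-rich minus globin-poor, for 9602 genes in the deposited FPKM and after median-ratio scaling. The deposited values centre on -0.44, and the scaled values on 0.01.

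The 4 genes that the study had used to check the depletion itself showed no called difference, as did every other gene. All 4 had a log2 difference above 0 (50.8% of all genes), with a median of 0.42. At an unadjusted p under 0.05, 2 of the 4 were higher (4.59% of all genes) and 0 lower (2.13%). ALAS2, the first enzyme of haem synthesis in red cell precursors, was at 18391 to 53966 (median 35007) in globin-rich and 13057 to 53846 (median 20896) in globin-poor libraries. Its log2 difference was 0.46 ± 0.24 (SE, adjusted p = 0.779, limma), and it turned to -0.07 in the deposited FPKM and to -0.20 after quantile normalization. FKBP8, an immunophilin of the outer mitochondrial membrane, had a log2 difference of 0.80 ± 0.32 (adjusted p = 0.713, limma). The glycolytic enzyme GAPDH was at 0.39 ± 0.13 and the ribosomal protein gene RPL13 at 0.27 ± 0.16, and both were below 0 in the deposited values (-0.14 and -0.26).

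By log2 difference, transcripts of red cells other than globin leaned upward in the globin-rich libraries without passing the test. Of 21 measured genes of haem synthesis 5 were higher and 0 lower at an unadjusted p under 0.05, against 4.59% and 2.13% of all genes, and their median log2 difference was 0.30 against 0.01 for all genes. In the deposited FPKM that median was -0.18. The summed share of haem synthesis genes in the non-globin FPKM was highest in the middle libraries. Its medians were 4.05% in globin-rich, 4.57% in middle and 3.61% in globin-poor libraries. ALAD, which joins 2 molecules of aminolevulinic acid into the first pyrrole of the pathway, came closest to a call. It was at 51.7 to 133 (median 93.9) in the globin-rich libraries, 31.7 to 113 (median 55.7) in the middle ones and 8.84 to 56.1 (median 39.0) in the globin-poor ones. Of the globin-rich libraries 9 lay above every globin-poor one. The difference was above 0 in 4 of 4 animals (7.67% of all genes), from 0.75 in Kai to 2.02 in Keo. For Hua and Kai it rested on 1 globin-poor library each. The log2 difference was 1.28 ± 0.27 (adjusted p = 0.238, limma), and without the February library of Keo, its lowest, ALAD passed (1.14, adjusted p = 0.0292, limma). In the deposited FPKM ALAD passed (0.77, adjusted p = 0.0476, limma), as 1 of the 2 genes called higher there.

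Other haem genes with a small unadjusted p were transporters. SLC25A39, a mitochondrial carrier needed for haem synthesis in mouse and zebrafish, was at 193 to 795 (median 395) against 60.3 to 321 (median 175), with a log2 difference of 0.91 ± 0.28 (adjusted p = 0.534, limma). SLC25A37, the mitochondrial iron importer mitoferrin 1, had a median of 88.1 against 54.2. TSPO, an outer mitochondrial membrane protein that binds porphyrins, had a median of 414 against 312. In all 3 the sets overlapped. All 3 were higher in 4 of 4 animals, against 7.67% of all genes, but they had been picked by small p in the same contrast.

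The red cell membrane list (24 measured) had 4 genes higher and 1 lower at an unadjusted p under 0.05 and a median log2 difference of 0.24. GYPC, the glycophorin that ties the membrane to its skeleton, had a median of 728 in globin-rich and 492 in globin-poor libraries. The 1 lower gene was ADD3, the gamma subunit of adducin, which many cell types also use. It was at 25.5 to 57.6 (median 40.3) against 42.6 to 66.4 (median 55.7), with a log2 difference of -0.49 ± 0.15 (adjusted p = 0.534, limma). Red cell enzymes (32 measured) had 6 higher and 0 lower, with a median of 0.20, but 6 lower calls and none higher in the deposited FPKM. BPGM, which makes the 2,3-bisphosphoglycerate that loosens oxygen from hemoglobin, had a median of 126 against 61.2. PRDX2, the abundant red cell peroxiredoxin, had 679 against 379, and GPX4, which reduces lipid peroxides, 353 against 189.4. Erythroid regulators (33 measured) had 2 higher and 0 lower, near the 4.59% and 2.13% of all genes, and a median of 0.16. Their summed share of the non-globin FPKM did not rise, with means of 0.119% in globin-rich and 0.1225% in globin-poor libraries. The share of the membrane list had medians of 0.201% in globin-rich, 0.200% in middle and 0.190% in globin-poor libraries. For the enzyme list these medians were 1.91%, 2.06% and 1.85%. FBXO7, an F-box protein linked to red cell maturation in mouse, was at 23.7 to 44.2 (median 28.0) against 11.1 to 26.2 (median 16.3), and 8 globin-rich libraries were above all globin-poor ones. Its median in the middle libraries was 15.8. In bulk blood more cells of a type and more RNA per cell cannot be told apart.

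Genes encoded by the mitochondrial genome gave the highest median log2 difference of all lists. These 13 genes code for subunits of the respiratory chain and of ATP synthase. All 13 had a log2 difference above 0 (50.8% of all genes), 10 of 13 at an unadjusted p under 0.05 (4.59% of all genes were higher at that limit) and 10 of 13 in the same direction in 4 of 4 animals (7.67% of all genes). Their median log2 difference was 1.49, with 0.98 in the deposited FPKM and 1.18 after scaling to the non-globin sum. None passed the adjusted threshold. Without the libraries that listed over 500 genes at 0, a setting chosen after seeing the data, the median was 0.92.

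CYTB, the cytochrome b of complex III, was at 65.0 to 1205 (median 246) in globin-rich, 34.0 to 498 (median 65.8) in middle and 35.3 to 156 (median 73.4) in globin-poor libraries. Its log2 difference was 1.79 ± 0.34 (adjusted p = 0.177, limma), and it was the second gene called higher in the deposited FPKM (1.27, adjusted p = 0.0316, limma). In CYTB 7 globin-rich libraries lay above every globin-poor one. ND1, a core subunit of complex I, was at 61.1 to 759 (median 306) against 26.9 to 262 (median 82.6), with a log2 difference of 1.97 ± 0.51 (adjusted p = 0.477, limma). The globin-rich libraries fell into a lower and an upper range for ND1, from 484 to 759 in Hua October, Keo March, Keo April, Kai July and Pele July and from 61.1 to 129 in the other 5, within the range of the globin-poor libraries. ND2 and ND4, also of complex I, had medians of 273 against 110 and 594 against 251. In the middle libraries the medians of ND1, ND2 and ND4 were 59.8, 102 and 184, below those of the globin-poor set. 

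The abundant mitochondrial transcripts differed by less. ATP6, part of the proton channel of ATP synthase, was at 2457 to 5675 (median 3932) against 1547 to 3618 (median 2765), with a log2 difference of 0.67 ± 0.17 (adjusted p = 0.450, limma). COI, the catalytic subunit of complex IV, was at 3171 to 5074 (median 4357) against 2047 to 3986 (median 3320), and 9 globin-rich libraries were above every globin-poor one. In the deposited FPKM both differences shrank, to 0.14 and 0.00.

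Respiratory chain genes encoded in the nucleus had a smaller tendency. Of 63 measured, 11 were higher and 0 lower at an unadjusted p under 0.05, with a median log2 difference of 0.23. Over all genes 4.59% were higher and 2.13% lower at that limit. NDUFS8, an iron-sulfur subunit of complex I, had a median of 15.2 against 7.53, and COX7A2 of complex IV 144.7 against 59.5, and both overlapped between the sets. Mitochondrial ribosomal genes (72 measured) had 5 higher and 1 lower and a median of 0.15. Their summed share of the non-globin FPKM went the other way, at a median of 0.245% in globin-rich and 0.267% in globin-poor libraries.

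Cytosolic ribosomal protein genes were nearly all on the same side. Of 70 measured, 69 had a log2 difference above 0 (50.8% of all genes), and the median was 0.38. At an unadjusted p under 0.05, 22 were higher and 0 lower, against 4.59% and 2.13% of all genes. In the deposited FPKM the median was -0.15. Their summed share of the non-globin FPKM was 43.3 ± 5.01% in globin-rich and 39.3 ± 3.96% in globin-poor libraries (SD, n = 10 each), with 9 globin-rich libraries above the globin-poor median and overlap between the sets. RPS26 had the largest difference of the list: it was at a median of 2624 (683 to 5592) against 963 (at most 1655), a log2 difference of 1.72 ± 0.46 (adjusted p = 0.477, limma). In the middle libraries the median of RPS26 was 632, below the globin-poor one. RPS26 split by library as ND1 did. The libraries in the upper ND1 range were at 3280 to 5592 and the other globin-rich ones at 683 to 1967. RPL35A had a median of 5687 against 3094, with overlapping sets. Ribosomal protein genes have many processed copies in mammalian genomes, so the division of their reads is uncertain. The proteasome list (43 measured) had 39 differences above 0, 4 higher and 0 lower, and a median of 0.17. Its summed share of the non-globin FPKM went the other way, at a median of 0.261% in globin-rich and 0.305% in globin-poor libraries. The directions of the log2 differences depend on the scaling. In the deposited FPKM every list median but that of the mitochondrially encoded genes was below 0. Scaling to the non-globin sum put the median of all genes at -0.27. The ribosomal protein and haem synthesis medians were then 0.06 and 0.01. Those of the red cell membrane, red cell enzyme, erythroid regulator, proteasome and nuclear respiratory chain lists were then below 0.

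**Figure D3:**
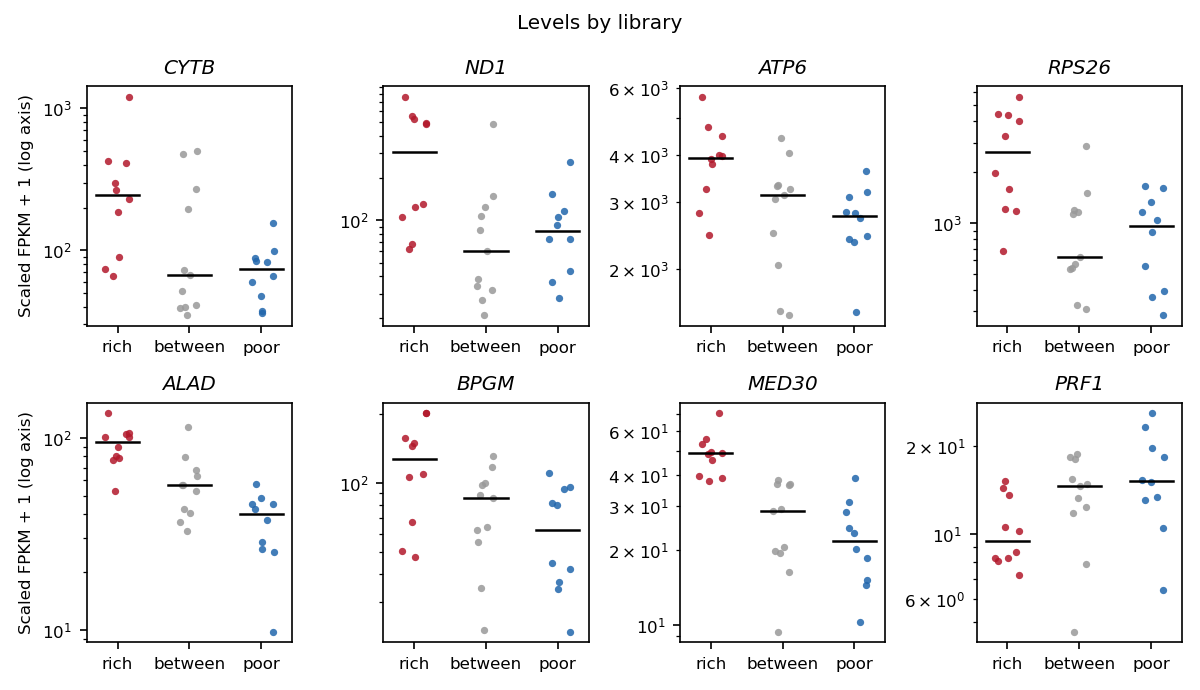
Scaled FPKM + 1 on a log axis for 8 genes in the 10 globin-rich, 11 middle and 10 globin-poor libraries. Points are libraries and bars are medians. ALAD and MED30 have 9 of 10 globin-rich points above all globin-poor points. ND1 and RPS26 are each split into 2 ranges within the globin-rich set, and PRF1 runs the other way.

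White cell markers showed no shared direction. The counts below stand against 4.59% of all genes higher and 2.13% lower at an unadjusted p under 0.05. Neutrophil genes (22 measured) had 5 higher and 0 lower at an unadjusted p under 0.05 and a median log2 difference of 0.21, but their summed share of the non-globin FPKM had a median of 0.858% in globin-rich and 1.08% in globin-poor libraries, with 3 of 10 globin-rich libraries above the latter. S100A8, a calcium-binding protein abundant in neutrophil cytoplasm, was at 546 to 3598 (median 1862) against 711 to 1943 (median 1163), with overlapping sets. Monocyte genes (18 measured) had 2 higher and 0 lower and a median of 0.19, with CD68, a lysosomal glycoprotein of macrophages and monocytes, at a median of 238 against 182. CD68 had a median of 176 in the middle libraries. Lymphocyte lists lay below the median of all genes. Natural killer and cytotoxic genes (19 measured) had 0 higher and 3 lower and a median of -0.15. PRF1, the pore-forming protein of cytotoxic granules, was at 6.23 to 14.3 (median 8.43) against 5.44 to 24.9 (median 14.2), a log2 difference of -0.72 ± 0.23 (adjusted p = 0.534, limma), with 9 globin-rich libraries below the globin-poor median. NKG7, a protein of the same granules, had medians of 48.7 and 52.4. T cell genes (27 measured) had 1 higher and 1 lower and a median of -0.05. B cell genes (18 measured) had 0 in either direction and a median of -0.15, with MS4A1, the CD20 antigen, at 35.7 against 52.5. Without the libraries listing over 500 genes at 0 the B cell median was 0.13. Eosinophil and basophil genes (10 measured) and platelet genes (14 measured) had medians of -0.10 and 0.06. In the deposited FPKM the medians of these lists were all below 0, from -0.27 for neutrophils and monocytes to -0.65 for natural killer cells.

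Genes of RNA handling differed between the deposited and the scaled values. Of 66 measured spliceosome and RNA-binding genes 21 were called lower and 0 higher in the deposited values, against 9.13% and 0.0208% of all genes. After scaling 2 were higher and 5 lower at an unadjusted p under 0.05, against 4.59% and 2.13% of all genes, and the median was -0.00. HNRNPA0, an hnRNP that binds AU-rich elements, was at 57.4 to 195 (median 108) against 109 to 261 (median 161). HNRNPD, which promotes decay of AU-rich mRNAs, was at 82.9 to 133 (median 114) against 103.6 to 188 (median 161). All 10 globin-rich libraries were below the globin-poor median of HNRNPD, with a log2 difference of -0.42 ± 0.16 (adjusted p = 0.652, limma). Translation factors (56 measured) had 14 lower calls in the deposited FPKM and a scaled median of 0.01. Heat shock genes (28 measured) had 8 lower calls in the deposited FPKM and a scaled median of -0.05. HSPA9, the mitochondrial HSP70, was at 30.3 to 57.3 (median 50.6) against 51.1 to 96.7 (median 62.1).

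The remaining lists stayed near the median of all genes. Immediate early genes (21 measured) had 3 higher and 1 lower at an unadjusted p under 0.05, against 4.59% and 2.13% of all genes, and a median of 0.05. The lower one was MCL1, a short-lived survival factor of the BCL2 family, with a median of 128 against 168. Interferon response genes (26 measured) had 0 in either direction and a median of -0.01. Their summed share of the non-globin FPKM reached 0.349% in the July library of Pele and 0.472% in her August library, but the median was 0.0604% in the globin-rich and 0.106% in the globin-poor libraries, and 1 of 10 globin-rich libraries lay above the latter. The July library belonged to the globin-rich set, and without it 513 genes in place of 646 had an unadjusted p under 0.05. Iron handling (16 measured) and mitophagy and autophagy (41 measured) had medians of -0.04 and 0.04. Without the libraries listing over 500 genes at 0 the interferon and iron medians were -0.26 and 0.21.

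**Figure D4:**
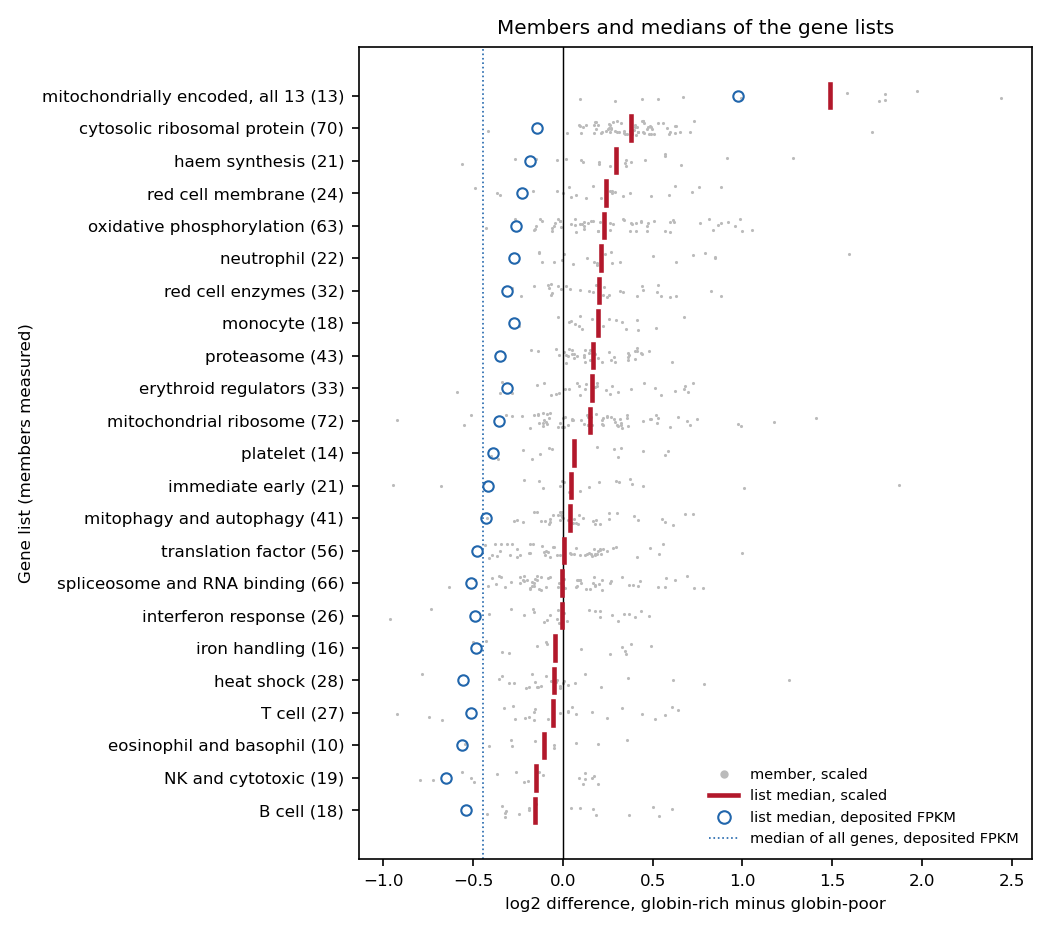
Log2 differences, globin-rich minus globin-poor, for the members of 23 gene lists after scaling (grey points), with the list medians after scaling (red bars) and in the deposited FPKM (blue circles). The mitochondrially encoded genes stand at the top in both, and the other circles lie below 0.

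Outside the lists, the smallest p-values belonged to genes of varied function. MED30, a Mediator subunit, was at 36.7 to 69.4 (median 47.7) in globin-rich and 9.24 to 37.7 (median 20.7) in globin-poor libraries, with 9 globin-rich libraries above every globin-poor one and a log2 difference of 1.09 ± 0.21 (adjusted p = 0.177, limma). The middle libraries, at a median of 27.7, lay between. GSTP1, a glutathione transferase, was at 60.4 to 334 (median 171) against 55.0 to 115 (median 72.0), a log2 difference of 1.28 ± 0.30 (adjusted p = 0.416, limma). IFI27L2, a relative of the interferon-inducible IFI27, had medians of 33.5 and 14.4. RNASE6, an antimicrobial ribonuclease of myeloid cells, had 1072 and 680. IL1B, the inflammatory cytokine interleukin 1 beta, was at 183 to 463 (median 267) against a median of 160, and all 10 globin-rich libraries were above the globin-poor median. GSTP1 and IL1B split by library as ND1 did. The libraries in the upper ND1 range were at 196 to 334 for GSTP1 and 328 to 463 for IL1B. The other globin-rich libraries were at 60.4 to 146 and 183 to 206. STARD10, a lipid transfer protein, had a median of 565 against 269. All 6 were higher in 4 of 4 animals, against 7.67% of all genes, but they had been picked by small p in the same contrast. Hua and Kai each had 1 globin-poor library. In the middle libraries the medians of GSTP1 (87.4), IFI27L2 (21.5) and STARD10 (408) lay between those of the sets. Those of RNASE6 (584) and IL1B (155) lay below the globin-poor ones. On the lower side, SUN2, which links the nuclear envelope to the cytoskeleton, was at 54.9 to 92.2 (median 74.6) against 88.6 to 123 (median 101), a log2 difference of -0.43 ± 0.12 (adjusted p = 0.477, limma). RITA1, a regulator of Notch signalling, had the largest difference of the named lower genes, at -1.47 ± 0.36 (adjusted p = 0.450, limma), but was at 0 to 3.44 in the globin-rich and 2.38 to 11.3 in the globin-poor libraries. SUN2, the Ras-association gene RASSF3 and the antiproliferative gene BTG1 shared the smallest adjusted p in the deposited FPKM (0.00831, limma), where their log2 differences were -0.96, -0.93 and -1.05.

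The 11 middle libraries, which the choice of sets did not use, show the same genes in other samples of the same 4 animals. Within them the globin share spanned 16.8 to 28.9%, and the slope of each gene on the share, per 10 percentage points with animal as block, was not called for any gene (0.0%, limma, smallest adjusted p = 0.986). An unadjusted p under 0.05 was found for 400 genes (4.17%), 158 with a slope above 0 (1.65%) and 242 with one below 0 (2.52%). Of the 441 genes higher in the globin-rich set at that limit, 341 (77.3%) had a slope above 0, against 49.6% of all genes. Of the 205 lower ones, 139 (67.8%) had a slope below 0, against 50.4% of all genes. Genes that vary together are not independent, and both fits used size factors from all 31 libraries. The excess of matching signs was therefore not tested. With an unadjusted p under 0.05 for the slope itself, the genes of matching sign were 22 of the 441 and 7 of the 205. GSTP1 (1.01), SLC25A39 (0.96) and RPS26 (1.32) were among the 22. For RPS26 and GSTP1 the highest middle library was Pele August, the one with the largest globin share, at 2865 and 239. The other middle libraries were at most at 1500 and 122, and the slopes were not refitted without Pele August. MED30 did not follow, with a slope of -0.19. Of the mitochondrially encoded genes 10 of 13 and of the ribosomal protein genes 61 of 70 had a slope above 0, against 49.6% of all genes. The 5 smallest p-values of the slope belonged to ZNF821, DET1, LSM8, SNX4 and ZNF576, with slopes between -4.82 and -2.10, and these genes had set differences between -0.19 and 0.57, none with an unadjusted p under 0.05.

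Whether the contrast differed between males and females was asked with an interaction term, and no gene was called (0.0%, limma, smallest adjusted p = 0.999), with 1.49% of the genes at an unadjusted p under 0.05 (87 or 0.906% with a larger and 56 or 0.583% with a smaller value in females). The fit rested on 6 globin-rich and 2 globin-poor male and 4 and 8 female libraries. The smallest p-values were those of CEP85L, KLHL13, CXCR3, MAP1LC3A and SNX24. CXCR3, a chemokine receptor of activated T cells, had a log2 difference of 1.30 in males and -0.43 in females. CEP85L, a centrosomal protein, had 1.59 and -1.09, KLHL13, an adaptor of a ubiquitin ligase, 1.11 and -0.55, MAP1LC3A, an LC3 protein of autophagosomes, -1.83 and 1.91, and SNX24, a sorting nexin, -1.69 and 0.60. These genes were low in abundance, with a highest level of 15.5 among them in the 20 libraries. The list medians were above 0 in both sexes for the mitochondrially encoded (1.08 and 1.41 in males and females), ribosomal protein (0.09 and 0.52) and haem synthesis genes (0.03 and 0.48). In males the other red cell lists were near 0, with 0.00 for the membrane, 0.01 for the regulators and 0.09 for the enzymes, against 0.35, 0.31 and 0.27 in females, and ALAS2 (-0.52), GYPC (-0.20) and PRDX2 (-0.27) were below 0 in Kai. The difference of these list medians between the sexes was not tested.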

How the data were processed

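The main table of FPKM deposited by the authors came from RSEM 1.2.18 with Bowtie2 2.2.4 on the Ensembl genome turTru1, after trimming in Trimmomatic. A second one came from TopHat2 2.3.13 and Cufflinks 2.2.0. Every gene in the main table had a mean of at least 1 FPKM. Scaling between libraries was not mentioned. Deposited results of the authors' own comparisons (log2 fold changes and probabilities by sex and season) were not used. Size factors were medians of ratios over the 6097 genes above 0 in all 31 libraries, without globins. Differences were fitted with limma 3.58.1 (R 4.3.3, eBayes with trend, animal as fixed block) on log2(FPKM / size factor + 1), which understates changes of low genes. The step was tested on simulated data. Genes were to be named among those past the threshold, with the depletion controls, the globins and the 5 smallest p of the other 2 fits. Some genes are not reported here. None passed, so other named genes were picked by small p after their values were seen. Members, lists and tests were chosen with earlier results of these data known. A permutation p planned for the list shares was left out, as the lists were so chosen. COI, COII and COIII were joined to the mitochondrial list after the file was read. Animal and month name each library. The alternatives were other scalings, pseudocounts, filters, blocks, library sets and tables.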

Additional observations from a re-analysis of the deposited data

Results flagged for a closer look

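Levels of the named genes and globins, the share and the number of genes at 0 were looked at in each set of 10 for a lone extreme library (gap to the nearest over the range, limit 0.466). Of 106 such sets 8 passed, and chance alone flags about 5%. ALAD was at 8.84 in Keo February and at 24.6 or more in the other globin-poor libraries (ratio 0.543), and without that library ALAD alone was called. GPX4 was at 395 in Kai May, above the other globin-poor libraries (ratio 0.493). PRDX2 was at 378 in Pele July, below the other globin-rich libraries (ratio 0.544). ATP6 was lowest in Pele September (1547, ratio 0.493) and COI in Kai September (3171, ratio 0.533). NDUFS8 was highest in Kai July (39.7, ratio 0.513) and HSPA9 in Keo November (96.7, ratio 0.471). ENSTTRG00000012084 was highest in Keo August (65.4 FPKM, ratio 0.499).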

How the results depend on the processing

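No gene was called after median-ratio scaling, and the count of calls stayed at 0 under scaling to the non-globin sum, quantile normalization, a pseudocount of 0.1, both filters on low values, 8 against 8, 15 against 15 or 3 against 3 libraries per animal, ranking by the Cufflinks share, omission of each animal or of the July and August libraries of Pele, eBayes without trend and the Cufflinks table. It was 879 in the deposited FPKM, to which no scaling was applied here. It was 2 without the animal block and 2 with animal as a random block (ALAD and MED30 in both). With the share as a continuous term over 31 libraries the count was 6, and in the de novo table it was 1. Leaving out each library in turn gave 0 to 1 calls, and 400 to 739 genes at an unadjusted p under 0.05, the fewest without the April library of Keo, and omission of Keo or Pele altogether left 370 and 378. Library weights from limma, added after seeing the data, gave 29 calls (28 higher, 1 lower), and omission of libraries with over 500 genes at 0, also added, gave 0. The cause of these differences was not tested. Signs turned for RPL13 (-0.26 in the deposited FPKM, -0.054 by the non-globin sum, -0.11 by quantile normalization), ALAS2 (-0.074 in the deposited FPKM, -0.20 by quantile normalization) and GAPDH (-0.14 in the deposited FPKM). The share of red cell enzymes differed by 0.383 percentage points in the Cufflinks table against 0.058 in the main one. At an unadjusted p under 0.05, scaling to the non-globin sum gave 54 higher and 1288 lower genes and quantile normalization 287 and 370, against 441 and 205. The fits on the middle libraries and on the sexes gave 0 calls under every alternative tried for them. No paired analysis was possible because the labels carry no replicate numbers, and the numbers given here follow deposit order and pair nothing, so animal served as the block. Unknown depth, 4 animals and the unequal mix of animals in the sets limit all of these values.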
